A study of Mus musculus with 16 samples.

Results

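The genes described here are 10 immediate-early genes of the AP-1 and EGR families: Fos, Fosb, Jun, Junb, Jund, Egr1, Egr2, Egr3, Ier2 and Atf3. They were selected on values measured in these data, namely the change from control CFU-E to the Kit-lo CFU-E labelled Mettl3-deficient, and the m6A immunoprecipitate (IP) over its input, so their differences in both comparisons are descriptions and carry no test. The RNA-seq table held 9 of the 10 genes among 15386 and the m6A-seq table held 9 among 13490, with Egr3 in neither. Of these 9, 8 passed the filter on low counts for RNA-seq and 7 that for m6A-seq. A gene with low counts passes that filter through the group where it is high.

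CFU-E are erythroid progenitors of the bone marrow that come before proerythroblasts and carry the receptor Kit. Bulk RNA-seq was made from 3 libraries of control CFU-E and 3 of CFU-E Kit-lo, the CFU-E with strongly reduced surface Kit in Mettl3-deficient mice, and m6A-seq from control CFU-E as 2 IP and 2 input libraries. The mice were of C57BL/6 background, male and female, and 10 to 16 weeks old, and the deficient mice were Mettl3 fl/fl EpoR Cre/–. The Cre is driven from EpoR, so that island macrophages as well as erythroid cells can lose Mettl3, and the genotype of the controls is not given in the sources used here. The RNA-seq groups differed in genotype and in the Kit gate at once, and these cannot be told apart. Mettl3 encodes the methyltransferase that writes m6A on mRNA. Its summed gene-level counts did not separate the groups, at 115, 123 and 130 CPM (counts scaled to library size, with TMM factors) in the controls and 117, 127 and 107 CPM in CFU-E Kit-lo. The log2 fold change was -0.068 ± 0.096 (SE). The exons removed from the floxed allele are not given in the sources used here, and Tox4, which runs on the other strand, covers 18.4% of the exon bases of Mettl3. In erythroid cells of the deficient mice, the study reported Mettl3 mRNA by qRT-PCR and its protein as absent, and global m6A as lower. Because the counts here did not separate, the groups are named by their labels. Kit was 598 ± 47.1 CPM (SD, n = 3) among the controls and 55.2 ± 12.4 in CFU-E Kit-lo, the direction of the gate. Library totals ran from 17429262 to 21329242 counts for RNA-seq and from 19421059 to 37142742 for m6A-seq. Nothing in the labels ties replicates to separate animals, so errors and p-values measure the spread between these libraries.

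Immediate-early genes are transcribed within minutes of a signal, from factors already present in the cell, and their mRNAs are short-lived. Fos and Jun proteins pair to form AP-1, which binds the sequence TGANTCA, and EGR proteins are zinc finger factors that bind GCGNGGGCG. Growth factor receptors such as Kit feed this program through ERK signaling, serum response factor (SRF) at CArG boxes and CREB at TGACGTCA, and the transcripts are removed through AU-rich elements in the 3′ UTR that contain ATTTA. Cell handling, heat and dissociation also induce these genes.

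Promoter stretches of 6 members are shown first, to show which of these sequences lie near their start sites, and that of Jun holds none of the marked motifs. RefSeq promoters (GRCm38.p6) were found for 7 of the 10 genes, and not for Egr1, Egr3 and Ier2. Each line gives 120 bases before and 50 bases after a RefSeq start site, written 5′ to 3′ on the gene's strand, with capitals for the motifs TATAAA and GCGNGGGCG, for the CArG box, and for TGACG on either strand.

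Fos, chr12:85473770-85473939, plus strand: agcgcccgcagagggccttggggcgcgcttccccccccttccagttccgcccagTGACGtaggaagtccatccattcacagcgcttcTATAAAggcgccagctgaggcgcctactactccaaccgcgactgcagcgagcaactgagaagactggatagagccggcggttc
Fosb, chr7:19309996-19310165, minus strand: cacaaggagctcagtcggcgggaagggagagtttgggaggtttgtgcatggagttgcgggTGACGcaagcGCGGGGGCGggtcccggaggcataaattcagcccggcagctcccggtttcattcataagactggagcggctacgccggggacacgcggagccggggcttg
Jun, chr4:95052173-95052342, minus strand: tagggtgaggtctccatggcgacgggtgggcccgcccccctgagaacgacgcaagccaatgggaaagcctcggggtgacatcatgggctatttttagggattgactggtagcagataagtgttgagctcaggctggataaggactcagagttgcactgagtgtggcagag
Junb, chr8:84978699-84978868, minus strand: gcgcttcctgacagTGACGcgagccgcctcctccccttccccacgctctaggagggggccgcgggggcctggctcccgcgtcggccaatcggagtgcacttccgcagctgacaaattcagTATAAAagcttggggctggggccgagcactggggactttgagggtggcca
Egr2, chr10:67537749-67537918, plus strand: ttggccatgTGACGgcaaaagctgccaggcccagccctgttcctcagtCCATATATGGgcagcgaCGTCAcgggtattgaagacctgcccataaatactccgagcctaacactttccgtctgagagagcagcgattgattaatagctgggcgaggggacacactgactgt
Atf3, chr1:191183284-191183453, minus strand: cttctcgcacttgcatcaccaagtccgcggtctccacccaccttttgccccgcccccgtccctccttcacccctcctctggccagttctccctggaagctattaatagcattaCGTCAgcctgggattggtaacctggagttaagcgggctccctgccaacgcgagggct

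Over the whole 300-base windows, searched on both strands, TATAAA was present in Fos, 33 bases before the start, and in Junb, at the RefSeq start itself, against 13.6% of 32851 mouse promoter windows. That RefSeq start lies 30 bases before the GENCODE start of Junb. The CArG box was present in Egr2, 72 bases before the start shown, against 1.63% of windows, and GCGNGGGCG in Fosb, 50 bases before the start, against 5.55%. Shares are per window, and a gene can have several. Egr2 has 5, which overlap in part, of which 4 hold a CArG box, and the window whose start lies 24 bases from the GENCODE start holds neither a CArG box nor TGACG. The palindrome TGACGTCA (1.79% of windows), TGANTCA (7.81%) and the ETS sequence CCGGAAGT (3.89%) were in 0 of the 7. The shorter TGACG, the first part of the palindrome, which was added after the other motifs had been searched, was present in Fos, Fosb, Junb, Egr2 and Atf3 against 20.8% of windows. It was absent from the windows of Jun and Jund. The start used for Atf3 lies 34706 bases from the GENCODE start of the gene, that of Egr2 2394 bases and that of Jund 1210 bases, so these windows lie at another start than the outermost one of GENCODE. A match is a stretch of letters and not a measured binding site.

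Among the Fos subunits of AP-1, Fos measured 404, 758 and 615 CPM in the 3 control CFU-E libraries and 19.4, 46.9 and 111 CPM in the 3 CFU-E Kit-lo libraries. Every CFU-E Kit-lo library was below every control library. The log2 fold change was -3.32 ± 0.51 (SE). Fosb, whose protein takes the same place in the dimer, measured 74.4, 117 and 95.4 CPM in the control libraries and 0.882, 2.28 and 6.93 CPM in CFU-E Kit-lo, with a log2 fold change of -4.83 ± 0.51. The Fosb difference rested on 17, 47 and 133 counts in the low group and was the largest among the 8 genes tested. Both genes were lowest in replicate 1 of CFU-E Kit-lo and highest in replicate 3, and the spread within that group was wide, with 59.2 ± 47.2 CPM (SD, n = 3) for Fos and 3.36 ± 3.17 CPM for Fosb.

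The Jun subunits, which pair with Fos proteins or with each other, had fitted differences of unequal size. Jun measured 1198, 1012 and 1218 CPM in the control libraries and 127, 233 and 223 CPM in CFU-E Kit-lo, with a fitted log2 fold change of -2.55 ± 0.20. Junb, which competes with Jun for partners, measured 303, 229 and 227 CPM in the control libraries and 123, 142 and 139 CPM in CFU-E Kit-lo, with a fitted log2 fold change of -0.91 ± 0.12. In both genes the groups did not overlap, and Junb had the smallest difference of the 7 genes called. Jund had 7, 12 and 14 counts in the control libraries and 6, 9 and 12 counts in CFU-E Kit-lo, with a fitted log2 fold change of -0.39 ± 0.61, and its groups overlapped. The Jund difference was smaller than its standard error. Of its exon bases, 52.6% overlap the opposite-strand gene Gm11175, and reads of the pair cannot be told apart where the counting strand is not stated, as here. For Jun the overlap with Junos was 7.28% of exon bases and for Junb that with Prdx2 was 7.52%.

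Egr1, a zinc finger factor induced through ERK signaling, measured 142, 152 and 120 CPM in the control libraries and 2.08, 8.68 and 9.80 CPM in CFU-E Kit-lo. The control libraries were close together and all lay far above the other group. The log2 fold change was -4.33 ± 0.40. Egr2 was near the limit of detection, with 6, 6 and 4 counts in the control libraries and 0, 3 and 0 counts in CFU-E Kit-lo, and did not pass the filter. Its 16 control counts against 3, pooled over libraries, gave a ratio of 5.43 per count sequenced. All 3 counts came from replicate 2, so the ratio rests on very few reads, and no test was made. 

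Ier2, a short nuclear protein of the immediate-early response, measured 113, 158 and 101 CPM in the control libraries and 9.45, 23.7 and 42.3 CPM in CFU-E Kit-lo, with a fitted log2 fold change of -2.30 ± 0.41. Atf3, a stress-induced bZIP factor that pairs with Jun proteins, measured 14.8, 6.63 and 17.0 CPM in the control libraries and 0.156, 2.13 and 1.25 CPM in CFU-E Kit-lo, with a fitted log2 fold change of -3.42 ± 0.63. The groups did not overlap in either gene. The lowest Atf3 value stood for 3 counts in replicate 1.

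**Figure D1:**
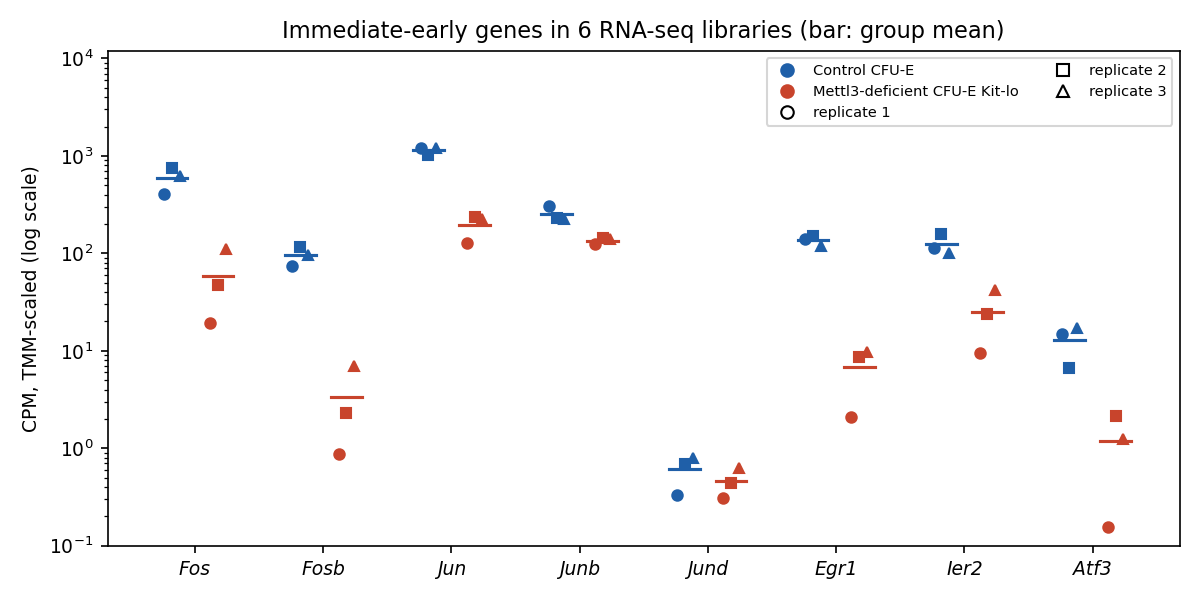
CPM on a log scale of the 8 genes tested by RNA-seq, in 3 control CFU-E libraries (blue) and 3 of CFU-E Kit-lo, labelled Mettl3-deficient (red). Symbols mark the replicate and bars the group mean. In 7 genes the groups do not overlap, from 303 against 142 CPM at most for Junb to 117 against 6.93 CPM for Fosb, and in Jund they do.

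Over all 11979 genes tested, 9.83% were called lower in CFU-E Kit-lo (fold of at least 1.5 and adjusted p under 0.05) and 12.1% higher. Among the 8 members tested, 7 were called lower, 0 higher and 1, Jund, was not called. Every CFU-E Kit-lo library was below every control library in these 7, and in 24.0% of all genes tested. Because this contrast chose the members, these counts describe the choice. The summed level of the members was 2250 to 2434 CPM in the controls and 283, 460 and 535 CPM in replicates 1, 2 and 3 of CFU-E Kit-lo. In bulk libraries, fewer cells that express a gene and less RNA per cell cannot be told apart.

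Within CFU-E Kit-lo the members shared their lowest library. All 8 tested were lowest in replicate 1, against 35.2% of all genes tested. Replicate 3 held the highest value for Fos, Fosb, Jund, Egr1 and Ier2, and replicate 2 for Jun, Junb and Atf3. In control CFU-E the order differed by gene, with Fos, Fosb, Egr1 and Ier2 highest in replicate 2, Jun, Jund and Atf3 in replicate 3 and Junb in replicate 1. The total count of replicate 1 of CFU-E Kit-lo was 18698840, close to the 19987964 and 19313314 of the others. Leaving out replicate 1 left 7 of the 8 called lower, as did leaving out any other library. The size of some differences rested on 1 library. Without replicate 3 of CFU-E Kit-lo the log2 fold change was -4.15 for Fos, -5.89 for Fosb and -2.90 for Ier2, and without replicate 2 it was -4.15 for Atf3. At the other end of the range over libraries left out in turn, it was -2.91 for Fos, -4.39 for Fosb, -1.92 for Ier2 and -2.91 for Atf3.

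**Figure D2:**
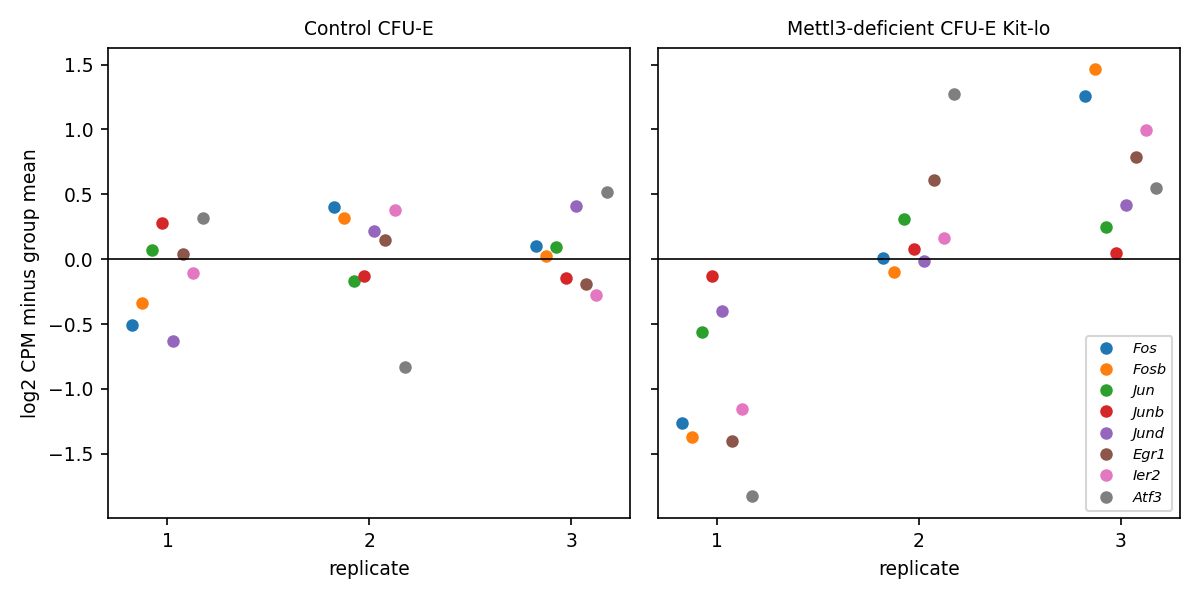
Log2 CPM of each tested member minus the mean of its group, in each replicate of control CFU-E (left) and of CFU-E Kit-lo, labelled Mettl3-deficient (right). All 8 genes lie below 0 in replicate 1 on the right, while the left panel shows no common low library.

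Some lists of markers of other cells and states moved with the groups, while the sums of the mast cell and megakaryocyte lists overlapped. Of 10 early progenitor markers tested, 6 were called lower and 1 higher. Their summed level was 2511 to 2572 CPM in the controls and 1275 to 1363 CPM in CFU-E Kit-lo. Kit, on whose surface level the cells were gated, is among the 6, at 598 and 55.2 CPM, so it is not a marker independent of the sort. Gate and genotype cannot be told apart in its fall. Of 16 erythroid markers 10 were called higher, 0 lower and 6 were not called. Their summed level was 12389 to 13419 CPM in the controls and 13850 to 16743 CPM in CFU-E Kit-lo. Car2, at 9318 and 7434 CPM and not called, makes up most of that sum. Hemoglobin and membrane genes rose far more than the sum, and 4 are named after their values were seen. Slc4a1 rose from 1.84 to 287 CPM, Hbb-bs from 3.94 to 448, Hba-a2 from 28.8 to 1322 and the heme synthesis gene Alas2 from 2.88 to 137. Macrophage markers summed to 25.3 to 30.6 against 17.9 to 23.6 CPM (0 higher and 2 lower of 8 tested), and granulocyte markers to 25.8 to 39.2 against 16.2 to 24.8 CPM (1 higher and 1 lower of 4). Mast cell and basophil markers summed to 2.78 to 5.78 against 0.388 to 3.60 CPM (0 called of 2), megakaryocyte markers to 61.8 to 76.3 against 65.6 to 84.0 CPM (2 higher and 1 lower of 6) and lymphoid markers to 1.24 to 3.20 against 3.84 to 5.63 CPM (1 higher and 0 lower of 1). The part of these shifts in the members' difference was not tested.

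Heat-shock and handling-stress genes, which cell isolation also induces, did not separate the groups as a whole: their summed level was 20627 to 26001 CPM in the controls and 20095 to 21859 CPM in CFU-E Kit-lo. Of 16 tested, Dnajb1 and Dnajb4, co-chaperones of Hsp70, were called higher (log2 fold changes of 0.59 and 0.65) and the inducible Hsp70 gene Hspa1a was called lower (-1.02), beside a list median of 0.13 and a median of 0.008 over all genes tested. These 3 were chosen after their values were seen, and over the alternatives the list had 0 to 3 genes called higher and 0 to 1 lower. The chaperones Hspa8 (-0.44 ± 0.11), Hsp90aa1 (-0.39 ± 0.11) and Hspd1 (0.08 ± 0.08) were not called.

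Other immediate-early genes went in both directions. Of 31 tested, 6 were called lower and 4 higher, with a median log2 fold change of -0.34. Nfkbia, the NF-κB inhibitor, was 269 ± 47.4 CPM in the controls and 101 ± 49.8 CPM in CFU-E Kit-lo (log2 fold change -1.41 ± 0.28, edgeR adjusted p = 0.0034). Cd69, an early activation antigen, fell from 6.05 ± 2.43 to 0.469 ± 0.189 CPM (log2 fold change -3.66 ± 0.48, edgeR adjusted p = 0.00032), and Rgs1, a regulator of G protein signaling, from 1.44 ± 0.208 to 0.104 ± 0.104 CPM (log2 fold change -3.73 ± 0.79). Gadd45g, a stress sensor, rose from 18.6 ± 3.17 to 93.6 ± 21.5 CPM (log2 fold change 2.33 ± 0.19, edgeR adjusted p = 1.7e-05). Socs3, a feedback inhibitor of cytokine receptors, was 0.0957 ± 0.166 CPM and 3.03 ± 1.79 CPM (log2 fold change 4.78 ± 0.97), and the kinase Plk2 was 0.306 ± 0.232 and 2.34 ± 0.780 CPM (2.88 ± 0.62), both called higher on few counts. Myc, Ppp1r15a and Klf10, the other highly expressed genes of the list, were not called, with log2 fold changes of -0.38, 0.54 and -0.37.

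**Figure D3:**
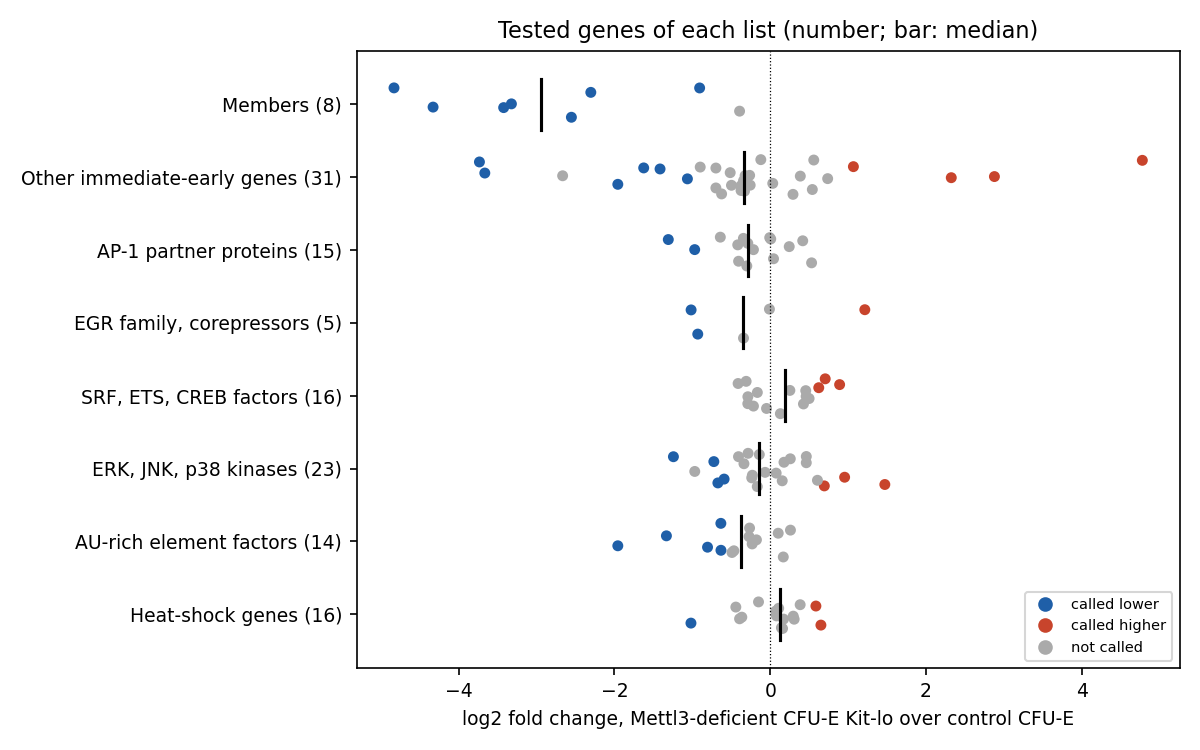
Log2 fold change of CFU-E Kit-lo (labelled Mettl3-deficient) over control CFU-E for every tested gene of each list, with the number tested in brackets, called genes in color and black bars at list medians. The members were selected on this contrast and have a median of -2.94; the other lists have medians of -0.37 to 0.19.

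The next lists hold genes that act with or upstream of the members. Among 15 AP-1 partner proteins tested, Atf2 (log2 fold change -0.97 ± 0.11, edgeR adjusted p = 0.00014) and Crem (-1.31) were called lower and 0 were called higher, or 1 higher without replicate 2 of CFU-E Kit-lo. Atf4 (0.42), Mafk (-0.006) and Creb1 (-0.29), the other most abundant of these bZIP factors, were not called. Among 5 tested genes of the EGR corepressor group, Nab1 (-0.93), which binds EGR proteins, and the deacetylase Hdac2 (-1.02 ± 0.16) were called lower and the remodeler Chd3 (1.22 ± 0.26) higher, whereas Chd4 (-0.01) and Hdac1 (-0.34) were not called. The count called lower in this group was 1 without any 1 control library and without replicate 2 or 3 of CFU-E Kit-lo. Among 16 SRF, ETS and CREB factors tested, 3 were called higher and 0 lower, namely the acetyltransferase Ep300 (0.89 ± 0.13) and the coactivators Mrtfa (0.62) and Crtc1 (0.71). Without any 1 control library, or without replicate 2 of CFU-E Kit-lo, 1 was called higher. Of the most abundant of that list, Crebbp (0.46), Creb1 (-0.29) and Mef2d (-0.17) were not called. Crem, Nab1, Mrtfa and Crtc1 were chosen after their values were seen.

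Among 23 kinases and GTPases of the ERK, JNK and p38 pathways, 3 were called higher and 4 lower, with a median of -0.14, and without replicate 1 of CFU-E Kit-lo 5 were called higher. Rps6ka1, a kinase downstream of ERK, rose from 63.6 ± 6.02 to 177 ± 20.6 CPM (log2 fold change 1.47 ± 0.12, edgeR adjusted p = 1.2e-05), and Map2k3, which activates p38, from 148 ± 6.65 to 287 ± 21.3 CPM (0.96 ± 0.09). Nras (-0.28) and Map2k2 (0.26) were not called. A list of 14 genes was taken for factors that bind or degrade transcripts with AU-rich elements. It includes Brf1 (-0.18, not called), which encodes an RNA polymerase III factor and not an AU-rich element factor. With a list median of -0.37, 0 were called higher and 5 lower, or 3 lower when replicate 3 of CFU-E Kit-lo was left out. The largest fall there was in Zfp36, itself an immediate-early gene (-1.96, chosen after its value was seen). Of the most abundant, the nuclease subunit Exosc10 was called lower (-0.63 ± 0.09), and the stabilizing factor Elavl1 (-0.27), the deadenylation scaffold Cnot1 (-0.49) and the deadenylase Parn (-0.47) were not called.

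The gene whose log2 CPM over the 6 RNA-seq libraries was most like the mean of the 8 tested members was Ttc3 (Pearson r = 0.996), followed by the ERK phosphatase gene Dusp1 (0.995), Hsbp1 (0.995), Fam162a (0.994) and Aldh7a1 (0.994), out of 6822 candidates. These 6 points fall into 2 groups, so the coefficients mainly reflect the group difference. Being picked for this likeness, these genes are described without a test. Dusp1 measured 121 ± 7.88 CPM in the controls and 39.3 ± 9.99 CPM in CFU-E Kit-lo (log2 fold change -1.62 ± 0.17), and Ttc3 measured 97.9 ± 4.93 and 43.1 ± 8.19 CPM (-1.18 ± 0.14). The log2 fold changes of Aldh7a1 (-0.98 ± 0.14), Fam162a (-0.36 ± 0.09) and Hsbp1 (-0.33 ± 0.14) were smaller.

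Per length, in CPM per kb of merged exons, the order of the members in control CFU-E was Jun at 358 ± 35.6 (SD, n = 3), Fos at 252 ± 75.7, Junb at 110 ± 19.0, Ier2 at 81.6 ± 19.9, Egr1 at 30.8 ± 3.62, Fosb at 15.3 ± 3.40, Atf3 at 5.94 ± 2.53, Jund at 0.364 ± 0.145 and Egr2 at 0.0842 ± 0.0168. The libraries of Jun and Fos overlapped, as did those of Junb and Ier2, and the other neighbors were separated. In CFU-E Kit-lo the leading pair was Jun at 61.1 ± 18.3 and Junb at 58.7 ± 4.40, whose libraries overlapped, with Fos at 25.2 ± 20.1 overlapping Ier2 at 16.5 ± 10.8. Egr1 (1.53 ± 0.931), Atf3 (0.548 ± 0.460), Fosb (0.539 ± 0.507) and Jund (0.274 ± 0.0947) followed, and neighbors among these 4 overlapped. Junb and Jun did not separate in CFU-E Kit-lo, whereas all 3 of its control libraries were below all 3 of Jun.

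The m6A-seq of control CFU-E compared IP with input, and the further minimum on the input level in the study's methods was not applied here. Over all 11447 genes tested, 7.90% were called higher in IP and 7.86% lower (adjusted p under 0.05). Of the 7 members tested, Fosb was called higher, Jun, Jund, Egr1 and Ier2 were called lower, and Fos and Junb were not called. This contrast also chose the members, and nothing is read from the count. With 2 libraries a group, the values are given one by one.

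Fosb measured 1.98 and 0.955 CPM in input and 7.50 and 2.66 CPM in IP, on 45, 17, 313 and 53 counts, a log2 fold change of 1.79 ± 0.54. Both IP libraries were above both inputs, as in 32.2% of all genes tested. The call was lost without input replicate 1, input replicate 2 or IP replicate 1, with log2 fold changes of 0.82 to 2.40 over the libraries left out in turn, and when only library size was scaled. Fos measured 87.3 and 51.9 CPM in input and 42.3 and 21.2 CPM in IP, a log2 fold change of -1.13 ± 0.35. Both IP libraries of Fos were below both inputs, so Fos and Fosb had opposite signs. Without IP replicate 1 the log2 fold change of Fos was -1.73.

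Jun measured 228 and 170 CPM in input and 79.5 and 61.5 CPM in IP (log2 fold change -1.50 ± 0.24). Junb measured 71.8 and 79.9 CPM in input and 56.5 and 56.8 CPM in IP (-0.42 ± 0.22). Jund measured 494 and 344 CPM in input and 1.82 and 1.41 CPM in IP, on 11200, 6128, 76 and 28 counts (-7.99 ± 0.34). In all 3 Jun genes both IP libraries were below both inputs, as in 28.7% of all genes tested. Jund had the third lowest value of the 11447 genes, after Gm20431 and Gm16867.

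Egr1 measured 22.4 and 31.2 CPM in input and 9.37 and 8.59 CPM in IP (log2 fold change -1.57 ± 0.28), and Ier2 measured 330 and 314 CPM in input and 200 and 166 CPM in IP (-0.81 ± 0.21). The IP libraries were below the inputs in both genes. The Ier2 call was lost in 5 of 10 alternatives and the Fos difference became a call in 6 of 10. Egr2 had 1 and 3 counts in input and 1 and 2 in IP, and Atf3 had 4 and 5 in input and 5 and 0 in IP, too few to compare.

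**Figure D4:**
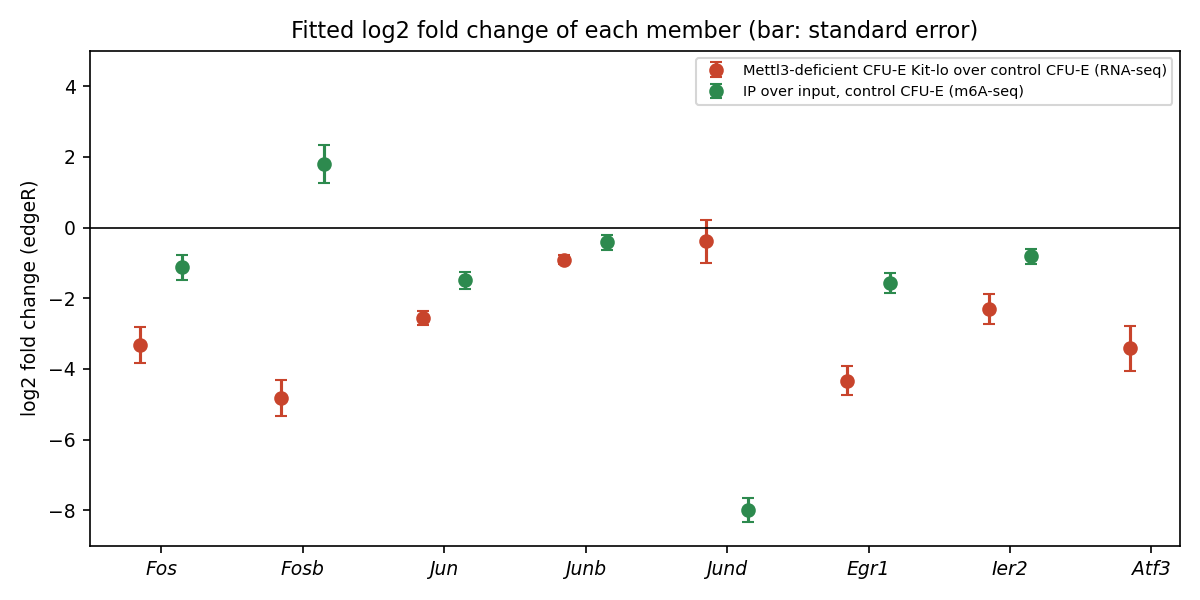
Fitted log2 fold change with its standard error of each member in both comparisons, Mettl3-deficient CFU-E Kit-lo over control CFU-E by RNA-seq (red, 3 libraries a group) and IP over input in control CFU-E by m6A-seq (green, 2 libraries a group). Fosb lies at -4.83 and 1.79, Jund at -0.39 and -7.99, and Atf3 has no m6A-seq value because it did not pass the filter.

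Control CFU-E were measured by 2 protocols, RNA-seq and m6A-seq input, and the members' levels differed between them. The tables were normalized separately, the library kits differ, and no test was made across them. Fosb was 95.6 CPM (mean of 3 libraries) in the RNA-seq and 1.47 CPM (mean of 2) in the input, Atf3 was 12.8 and 0.229 CPM, and Fos was 592 and 69.6 CPM. Jund stood the other way, with 0.607 CPM in the RNA-seq and 419 CPM in the input, and so did Ier2, with 124 and 322 CPM. Jun was 1143 and 199 CPM, Junb was 253 and 75.9 CPM, and Egr1 was 138 and 26.8 CPM. Levels differed by protocol in many genes, and 61.9% of 10775 genes with at least 1 CPM in either lay within 4-fold. Among these genes, the ratio of RNA-seq to input was lower than that of Fosb in 99.9% and lower than that of Jund in 0.0278%. Kit itself was 598 CPM in the RNA-seq and 30.4 CPM in the input. Protocol, sort and library cannot be told apart in this comparison.

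**Figure D5:**
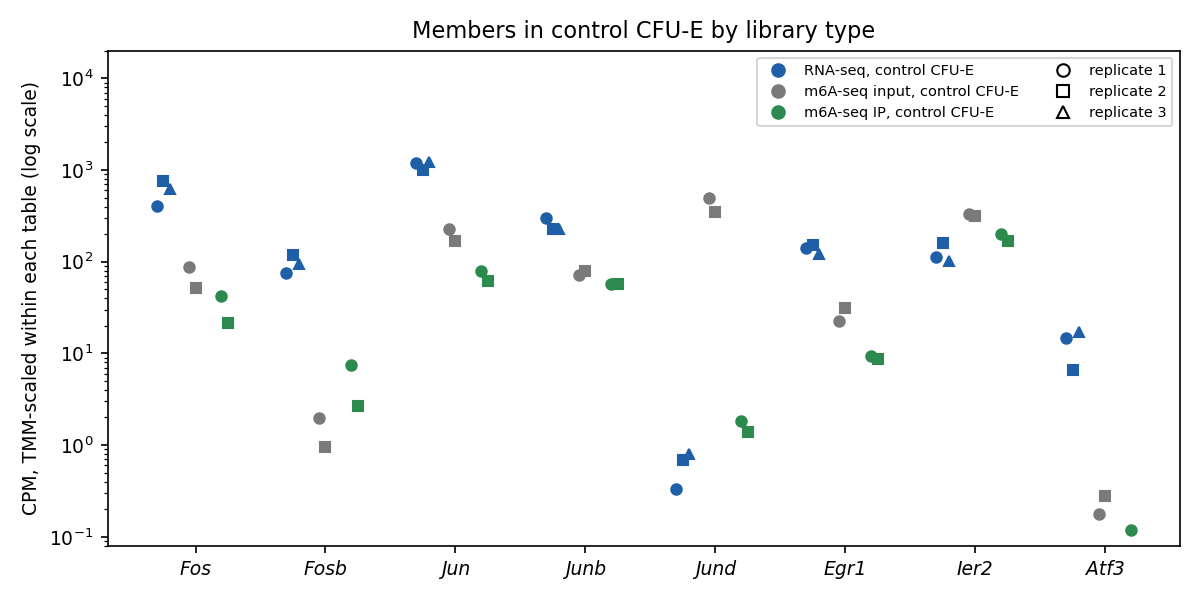
CPM on a log scale of 8 members in control CFU-E by RNA-seq (blue, 3 libraries), m6A-seq input (gray, 2) and m6A-seq IP (green, 2), with symbols for the replicate and each table scaled separately. Jund lies at 0.335 to 0.801 CPM in the RNA-seq and at 344 to 494 CPM in the input. The Atf3 IP library with 0 counts is not drawn on the log scale.

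Features of the transcripts did not enter the choice of members. Jun, Junb, Jund and Ier2 have a single exon, as do 5.13% of genes tested by RNA-seq and 3.03% of those tested by m6A-seq. The GC content of the main transcript was 67.1% in Jund, 62.6% in Junb, 60.9% in Ier2, 57.3% in Egr1, 56.0% in Fosb, 55.5% in Jun, 52.2% in Atf3 and 51.9% in Fos, all above the median of 49.7%. GGAC, a core of the motif at which m6A is written, occurred 8.29 times per kb in Junb, 7.23 in Ier2, 5.40 in Jund and 5.33 in Jun. It occurred 4.23 times per kb in Fosb, 4.03 in Atf3, 3.80 in Fos and 2.68 in Egr1, against a median of 4.06.

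Across all genes the IP over input moved with GC content and exon number. The median log2 fold change was 0.38 in the lowest of 10 equal GC classes and -0.41 in the highest, and it was -0.35 in 346 single-exon genes against 0.06 in 11073 genes with more exons. Among the 24 tested genes with a GC content at least that of Jund, the median was -2.32 and the range -7.99 to 0.42. By RNA-seq these same GC classes had medians of -0.05 and 0.22. The part of GC content and exon number in the members' values was not tested.

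ATTTA, the core of AU-rich elements, occurred in the 3′ UTR of all members but Ier2, with 7 copies in Egr3, 4 in Fos and in Jun, 3 in Egr2 and in Atf3, 2 in Junb and in Egr1, and 1 in Fosb and in Jund. At least 1 copy was present in 64.7% of the 11950 RNA-seq genes tested that were matched to the annotation. Genes without an annotated 3′ UTR are among these and count as lacking ATTTA. The stretches with most copies in Fos and Jun, the most abundant members per length in control CFU-E, are shown from the GENCODE transcripts of GRCm38 (vM21), with ATTTA in capitals.

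Fos, bases 632 to 661 of its 3′ UTR: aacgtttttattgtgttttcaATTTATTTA
Jun, bases 1028 to 1057 of its 3′ UTR: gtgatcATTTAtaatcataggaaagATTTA

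In Fos the 2 copies overlap, and in Jun they are separate.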

How the data were processed

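The 10 genes and the gene lists were chosen with earlier results of these data known. Both tables hold estimated counts per gene that the authors deposited without normalization, after fastp 0.23.4, kallisto 0.48.0 and tximport on the mm10 reference. Smart-seq2 with oligo-dT priming gave the RNA-seq libraries, and the IP and input libraries came from a low-input m6A protocol with Tn5 fragmentation. The 6 ProE samples were not analysed here. Counts, all whole numbers, were fitted separately for each table in R 4.3.3 with edgeR 4.0.16 (TMM, filterByExpr, quasi-likelihood test, Benjamini-Hochberg adjustment over all genes tested), without a replicate block. The standard error is the absolute log2 fold change divided by the square root of F.

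RNA-seq calls needed a fold of at least 1.5 and adjusted p under 0.05, and m6A-seq calls adjusted p under 0.05. Named genes were the members, Mettl3, Kit, the 4 most abundant genes of each of 7 pathway lists, list genes called with an absolute log2 fold change of at least 2, and the 5 genes most like the members. Of the list genes that this rule names, 2 are not reported here. Features came from GENCODE and RefSeq annotations of GRCm38. Protein sequences were not used here. Alternatives were DESeq2 1.42.0, other scalings, no filter, a replicate block and leaving out each library.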

Additional observations from a re-analysis of the deposited data

How the results depend on the processing

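In the RNA-seq, 7 members were called lower and 0 higher under all 12 alternatives, and the 96 refitted member values kept their direction and side of the threshold. Genes called lower ranged from 979 to 1247 and genes called higher from 1201 to 1513 when each library was left out. In the m6A-seq the median over all genes moved from 0.06 to 0.21 with library size only and to 0.18 with upper quartile scaling, and no member changed direction. Members called higher, 1 with TMM, were 0 with library size only and 0 to 1 when each library was left out, and members called lower ranged from 3 to 5. Over the 10 alternatives, Fosb lost its call in 4, Ier2 lost its call in 5 and Fos gained a call in 6. Genes called higher were 1451 with upper quartile scaling, and when each library was left out they ranged from 164 (without input replicate 1) to 1358 and genes called lower from 427 (without input replicate 1) to 968. The cause was not tested.

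The replicate block gave 1783 genes higher and 1755 lower in the m6A-seq against 904 and 900 without it. Deviations of same-numbered IP and input libraries, which share only a number, correlated at 0.205. With 2 libraries a group the deviations mirror each other, so both pairs give this same value. A positive value then makes every m6A-seq library most like that of its own number, which adds nothing further. With the block Fos was called lower (-1.16), and Fosb and Ier2 remained called. In the RNA-seq the correlations were 0.034, -0.017 and -0.072, not every library was most like its own number, and the block moved neither the counts over all genes nor those over members by more than 1.5 times. Levels per kb of the longest transcript moved beyond 1 SD for Fosb (25.3 against 15.3) and Junb (140 against 110). Low counts limit Jund and Egr2 in the RNA-seq and Atf3, Egr2 and Fosb in the m6A-seq.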

Other observations

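IP over input in control CFU-E also differed among genes of the lists that act with the members. Among 17 AP-1 partner proteins tested, 1 was called higher in IP and 3 lower. Cebpb, a bZIP factor encoded by a single exon with a GC content of 67.2%, measured 28.1 ± 2.99 CPM in input and 0.172 ± 0.0404 CPM in IP (log2 fold change -7.38 ± 0.40, edgeR adjusted p = 3.5e-06). Its partner Cebpg, with 2 exons and 43.3% GC, measured 71.1 ± 8.66 and 5.63 ± 1.36 CPM (-3.64 ± 0.28). By RNA-seq, control CFU-E held 0.0988 CPM of Cebpb and 57.2 CPM of Cebpg. Cebpb was thus near its IP level there and far below its input, and Cebpg was not. Of 27 other immediate-early genes 1 was called higher and 6 lower, among them the phosphatase gene Dusp2 (-3.14 ± 0.35) and the kinase gene Plk3 (-2.14 ± 0.46). Dusp2 was 9.86 CPM in input, 1.09 CPM in IP and 1.01 CPM in control CFU-E by RNA-seq. Of 5 EGR corepressor genes 0 were called higher and 2 lower, Hdac1 (-0.72 ± 0.21) and Hdac2 (-2.72 ± 0.33).

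Of 15 SRF, ETS and CREB factors 5 were called higher in IP and 0 lower, among them the acetyltransferase gene Crebbp (1.64 ± 0.30). The kinases and GTPases of the ERK, JNK and p38 pathways were divided, with 5 of 24 called higher and 5 lower. Nras and Hras had opposite signs. Nras measured 191 ± 28.7 CPM in input and 590 ± 97.3 CPM in IP (1.63 ± 0.24, edgeR adjusted p = 0.0013), and Hras 173 ± 28.8 and 6.50 ± 0.600 CPM (-4.73 ± 0.27). By RNA-seq, control CFU-E held 268 CPM of Nras and 4.85 CPM of Hras, so Hras too was far higher in the input than in the RNA-seq. Map2k2 (-1.12 ± 0.22) and Mapk3 (-2.02 ± 0.29) were called lower. Of the 14 genes listed as AU-rich element factors, 5 were called higher, among them Cnot1 (1.10 ± 0.26) and Parn (1.38 ± 0.31). In the same list 3 were called lower, among them Zfp36l1 (-2.41 ± 0.26) and the RNA polymerase III factor gene Brf1 (-1.28 ± 0.25). Of 15 heat-shock genes 1 was called higher and 0 lower. Over all genes tested 7.90% were called higher and 7.86% lower. Many of these counts rested on single libraries. Without input replicate 1, 0 of the SRF, ETS and CREB factors, 0 kinases, 0 AU-rich element factors, 0 AP-1 partners and 0 other immediate-early genes were called higher, and 3 kinases, 3 other immediate-early genes and 1 EGR corepressor gene lower. Without input replicate 2 the genes called higher were 3 SRF, ETS and CREB factors, 1 kinase, 3 AU-rich element factors and 0 AP-1 partners, and without IP replicate 1 they were 2, 1, 1 and 0. Without IP replicate 2, 4 AP-1 partners and 2 other immediate-early genes were called higher. Heat-shock genes ranged from 0 to 2 in each direction over the libraries left out. The EGR corepressor genes called lower were 1 without input replicate 2 and without IP replicate 1.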
